A study of Mus musculus with 12 samples.

Results

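Lymphocytes leave the blood by first rolling on the vessel wall and then holding fast to it. RNA of 9 genes for surface proteins of these steps, or of adhesion to matrix or epithelium, was followed across spleen lymphocytes of C57BL/6J mice. The genes were Selplg, Cd44, Itgal, Itgb2, Itga4, Itgb1, Itgb7, Itga6 and Itgae. They were found by name among the 41128 genes of the deposited table, and each gave 1 entry. RNA sequencing covered 12 libraries in 4 groups of 3, namely CD43- resting B cells from females and from males and naive CD4+ T cells from females and from males. All mice were wild-type C57BL/6J aged 6 to 8 weeks with no treatment named, and RNA was extracted from sorted cells. The T cells had been sorted for low CD44 and absence of CD25, after depletion with antibodies that included CD49b and CD11b. The series text describes the replicates as pools, so p-values measure the spread between pools and not between single mice. Same-numbered female and male T cell libraries deviated together from their group means. Tests between the cell types over both sexes treat these libraries as separate, so their p-values may be too small.

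Integrins are heterodimers of an alpha and a beta chain, and neither chain is carried to the cell surface without its partner. LFA-1 joins the products of Itgal and Itgb2 and binds ICAM proteins on vessels and on antigen-presenting cells. The product of Itga4 pairs with that of Itgb1 to bind VCAM-1, or with that of Itgb7 to bind MAdCAM-1 in gut-associated vessels. The product of Itga6 pairs with that of Itgb1 in lymphocytes to bind laminin, and the product of Itgae pairs with that of Itgb7 to bind E-cadherin on epithelium. Selplg encodes PSGL-1, the ligand of P-selectin, and Cd44 encodes a receptor for hyaluronan.

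Values are adjusted TPM. TPM is a transcript level per length, and the method by which the authors adjusted it is not given. Setting levels beside each other between genes assumes that the adjustment treated all genes of a library alike. Differences are given as B minus T on the log2(adjusted TPM + 1) scale so that the change of a gene with low values is understated. Sequencing depth is unknown. Each library contained 11122 to 11543 genes at 1 or more, and Pearson's r between replicates was 0.985 to 0.992. The summed B cell markers reached 2220 to 2643 in B cells against 0.896 to 4.91 in T cells. The summed T cell markers reached 9.76 to 14.1 in B cells against 1017 to 1194 in T cells. Both T cell libraries numbered 6, 1 from each sex, stood apart from the other 4 T cell libraries, with a summed regulatory T cell marker level (Foxp3, Il2ra and Ikzf2) of 17.2 and 21.0 against 1.75 to 3.14. The calls of the tested adhesion genes between the cell types, the chain ratios and sums and the list counts are given also without them. So is the unpaired sex difference of Cd44. Most differences of single list genes and the paired sex intervals are not. In bulk libraries, fewer cells of a type and less RNA per cell cannot be told apart.

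Naive T cells contained more RNA of 5 of the adhesion genes and B cells more of 2. Selplg, Itga6, Itgb7, Itgb2 and Itgal were higher in T cells, and Cd44 and Itga4 in B cells. Itgb1 did not pass the test, and Itgae lay below the level required for testing, which was 1 or more in 3 or more libraries. Thus 8 of the 9 genes were tested and 7 were past an adjusted p of 0.05 in limma with Benjamini-Hochberg adjustment over all 12520 tested genes. Of all tested genes 73.0% were past that threshold, 31.4% with more RNA in B cells against 41.6% with more in T cells, so a count of 7 in 8 is near the background and the sizes of the changes carry the description. The median change of the 8 genes was -1.28, beside -0.09 for all tested genes. The B and T cell libraries did not overlap for 6 of the 9 genes, and the same held for 53.9% of all tested genes. Fits within a single sex hold no same-numbered pair. In each sex alone, Selplg, Itga6, Itgb7, Itgb2, Itgal and Cd44 were again called.

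The direction of these calls was checked under other scalings. After rescaling each library to a total of 1000000, the median change of all tested genes moved to 0.26, and 39.1% of them were called higher in B cells against 15.5% in T cells. With median-ratio scaling the median was 0.01, and the shares were 38.0% and 34.3%. All 7 called genes kept their direction under both scalings. Itgal lost its call when totals were rescaled, as given beside its values.

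**Figure D1:**
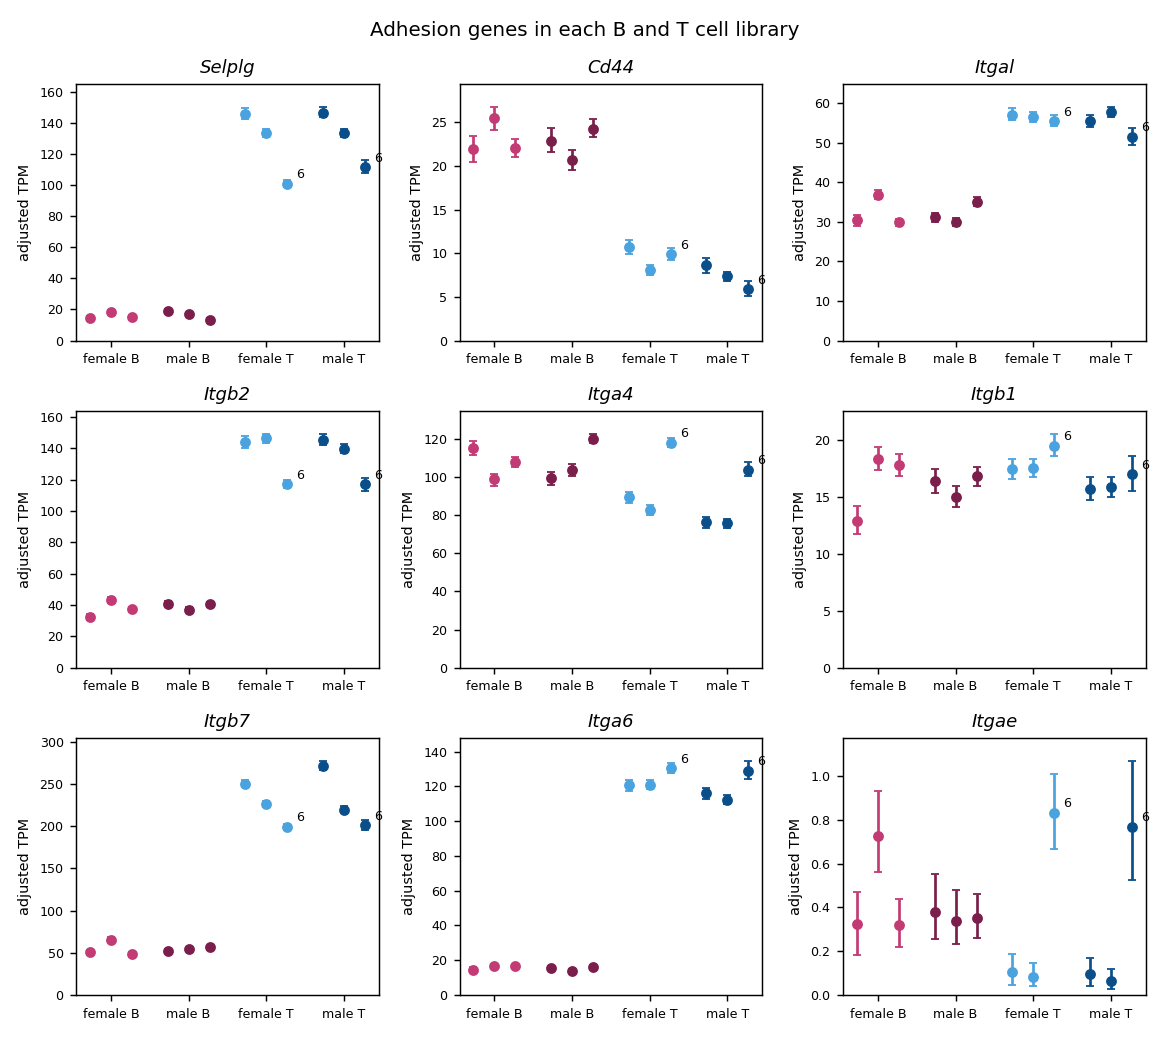
Adjusted TPM (vertical axis, linear and starting at 0, with its own range in each panel) of the 9 adhesion genes in the 12 libraries, 3 points for each group on the horizontal axis in the order of their numbers; bars are the deposited lower and upper bounds, and "6" marks the T cell libraries numbered 6. Selplg, Itga6, Itgb7, Itgb2 and Itgal sit higher in all 6 T cell libraries, Cd44 sits higher in all 6 B cell libraries, and Itgae is at 0.769 to 0.833 in the T cell libraries numbered 6 against 0.0629 to 0.103 in the other 4.

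Selplg and Itga6 had the largest differences between the cell types among the 8 tested genes. The gene lies at chr5:113818536-113832644 on the minus strand (mm10), and no other annotated gene overlaps it. In B cells its adjusted TPM was 14.3, 18.4 and 15.0 in females and 19.0, 17.0 and 13.5 in males. In T cells it was 146.2, 133.8 and 101.1 in females and 146.7, 133.9 and 111.8 in males. Every T cell library was thus far above every B cell library, and both lowest T cell values came from the libraries numbered 6. The mean was 16.2 ± 2.26 in B cells and 128.9 ± 18.6 in T cells (SD, n = 6 each), a ratio of means of 7.96. The log2 difference was -2.91 (SE 0.11, adjusted p = 6.79e-11, limma), larger in size than that of 95.3% of tested genes. Without the libraries numbered 6 it was -3.05.

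Cd44 went the other way. It lies at chr2:102811141-102901665 on the minus strand, and a small nuclear RNA gene, Gm23731, overlaps it on the opposite strand. Its adjusted TPM was 21.9, 25.5 and 22.1 in female and 22.9, 20.7 and 24.2 in male B cells. In T cells it was 10.7, 8.09 and 9.86 in females and 8.62, 7.36 and 5.89 in males. No T cell library reached the lowest B cell library. Its log2 difference was 1.36 (SE 0.09, adjusted p = 2.08e-08, limma) with a ratio of means of 2.72. Because the T cells had been sorted for low CD44 protein, this direction cannot be told apart from the gate. Even so, Cd44 RNA was present in all 6 sorted T cell libraries.

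LFA-1 RNA was higher in T cells for both chains, but by unequal amounts. Itgal (chr7:127296260-127335138, plus strand) encodes the alpha chain. Its lowest, median and highest values were 29.9, 30.8 and 36.9 in B cells against 51.5, 56.1 and 57.7 in T cells. The groups did not overlap, and T cells had 1.73 times the mean of B cells. B cells differed from T cells by a log2 value of -0.77 (SE 0.06, adjusted p = 1.78e-07, limma). Rescaling to a total of 1000000 reduced it to -0.40 (adjusted p = 0.0708). Relative to the median of all tested genes, however, it was -0.68 in the deposited scaling and -0.66 after that rescaling. The other 19 of 20 alternatives kept the call, with adjusted p from 8.57e-08.

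Itgb2, the beta chain that LFA-1 shares with other leukocyte integrins, changed more. The gene is at chr10:77530252-77565708 on the plus strand. B cell libraries gave 32.3, 43.1 and 37.2 in females and 40.8, 36.9 and 40.4 in males. T cell libraries gave 144.1, 146.4 and 117.3 in females and 145.6, 139.7 and 117.4 in males. All T cell values exceeded all B cell values, and the libraries numbered 6 were the lowest T cell libraries in each sex. The log2 difference was -1.79 (SE 0.09, adjusted p = 6.63e-10, limma) and the ratio of means 3.51. Itgb2 also serves Itgam and Itgax, which were low in these libraries and are described with the other integrin chains.

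Itga4 and its alternative beta partners behaved differently from each other, the alpha 4 chain and the beta 1 chain being similar in level between the cell types and the beta 7 chain far higher in T cells. The promoter sequences of these 3 genes are given for that reason, each as 250 bases before to 50 bases after the annotated start (RefSeq, GRCm38.p6), read 5′ to 3′ on the strand of the gene, with matches to the searched motifs in capitals.
Itga4, chr2:79255176-79255475, plus strand: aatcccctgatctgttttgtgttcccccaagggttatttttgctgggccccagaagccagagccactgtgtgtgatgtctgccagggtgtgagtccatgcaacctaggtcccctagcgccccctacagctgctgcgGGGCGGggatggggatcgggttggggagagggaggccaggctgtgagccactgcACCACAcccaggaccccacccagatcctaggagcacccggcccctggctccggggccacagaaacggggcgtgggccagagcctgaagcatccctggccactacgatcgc
Itgb1, chr8:128685404-128685703, plus strand: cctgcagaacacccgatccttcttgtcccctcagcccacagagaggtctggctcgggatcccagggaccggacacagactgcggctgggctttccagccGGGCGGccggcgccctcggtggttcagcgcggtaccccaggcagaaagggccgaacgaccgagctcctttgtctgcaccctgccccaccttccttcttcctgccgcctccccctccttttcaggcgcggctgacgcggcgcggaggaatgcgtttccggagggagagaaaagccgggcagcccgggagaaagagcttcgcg
Itgb7, chr15:102231886-102232185, minus strand: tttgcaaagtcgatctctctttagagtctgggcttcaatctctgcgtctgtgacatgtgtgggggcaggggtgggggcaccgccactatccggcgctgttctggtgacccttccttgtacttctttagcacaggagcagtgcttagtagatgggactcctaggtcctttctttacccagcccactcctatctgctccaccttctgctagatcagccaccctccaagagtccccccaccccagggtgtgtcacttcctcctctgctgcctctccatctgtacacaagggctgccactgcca
Motifs were searched on both strands of these windows and of 32851 promoters of the same length. The core of ETS factor sites, CGGAAG, occurred in 16.9% of those promoters. The RUNX factor site TGTGGT occurred in 16.8% of them. The GC box, with the letters GGGCGG, was found in 35.7%. The CCAAT box, by those 5 letters, was found in 37.4%. The TATA box, searched for as TATAAA, was found in 13.6%.

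The Itga4 promoter held a GC box starting 114 bases before the start and a RUNX match on the other strand, printed as ACCACA, 60 bases before it. The Itgb1 promoter held a GC box 151 bases before the start. The Itgb7 promoter held none of the 5 motifs, which says only that these letters are not in this window. The windows also differed in base composition, since Itgb1 had 27 CpG dinucleotides and 67.3% G and C, Itga4 10 and 64.3%, and Itgb7 5 and 56.3%, beside medians of 7 and 52.7% over all promoters. Among the 9 adhesion genes 4 matched the promoter table, and the fourth, Cd44, had 6 CpG dinucleotides, 58.0% G and C and a GC box starting 3 bases after its start.

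Itga4 was the most abundant of the 9 genes in B cells. It is at chr2:79255426-79333123 on the plus strand and overlaps Cerkl on the opposite strand. Its adjusted TPM was 115.4, 98.7 and 107.7 in female and 99.4, 103.8 and 120.0 in male B cells. In T cells it was 89.3, 82.7 and 117.9 in females and 76.2, 75.8 and 103.9 in males. The T cell libraries numbered 6 lay within the range of the B cells, and the other 4 lay below every B cell library. The log2 difference was 0.25 (SE 0.10, adjusted p = 0.0443, limma), close to the threshold.

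That call depended on single libraries. It was lost without any 1 of female B cells 1 or 3, male B cells 2 or 3, female T cells 4 or 5, or male T cells 4 or 5, where adjusted p for Itga4 ran from 0.0595 to 0.113. It was also lost with no filter on low values (adjusted p = 0.0812), in females alone (0.33) and in males alone (0.0609). Without both T cell libraries numbered 6 the difference for Itga4 was 0.40 with an adjusted p of 0.000442. All alternatives kept Itga4 higher in B cells.

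Itgb1, the common beta chain of lymphocyte adhesion to matrix, did not pass the test. The gene lies at chr8:128685654-128733200 on the plus strand with no overlapping gene. The lowest, median and highest values were 12.9, 16.6 and 18.4 in B cells against 15.7, 17.2 and 19.5 in T cells. These ranges overlapped. The log2 difference was -0.08 with a 95% interval from -0.26 to 0.09 (adjusted p = 0.354, limma), so differences within that interval remain possible. The sign of the estimate was positive after rescaling to a total of 1000000 (0.28, limma adjusted p = 0.213) and with median-ratio scaling (0.02).

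Itgb7 was the most abundant of the 9 genes in T cells. It is at chr15:102215995-102231944 on the minus strand. B cell libraries gave 50.8, 65.6 and 48.7 in females and 51.9, 53.8 and 56.7 in males. T cell libraries gave 250.7, 226.2 and 199.6 in females and 271.6, 219.4 and 201.3 in males. The groups lay far apart, with the libraries numbered 6 again lowest among the T cells. The mean was 54.6 ± 6.04 in B cells and 228.1 ± 28.3 in T cells (SD, n = 6 each). This gave a log2 difference of -2.04 (SE 0.09, adjusted p = 4.71e-10, limma).

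Itga6, the alpha chain of a laminin receptor, had the smallest adjusted p of the 8 tested genes. It is at chr2:71745616-71858416 on the plus strand, where 4 noncoding or pseudogene entries overlap it, among them Gm17250 and Gm13739 on the opposite strand. The adjusted TPM was 14.6, 16.7 and 16.4 in female and 15.3, 14.0 and 16.3 in male B cells. In T cells it was 120.8, 120.8 and 130.3 in females and 115.9, 112.2 and 129.0 in males. The highest T cell value in each sex came from the library numbered 6, the reverse of Selplg, Itgb2 and Itgb7. The ratio of means was 7.82, and the log2 difference was -2.89 (SE 0.06, adjusted p = 8.53e-14, limma).

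Itgae, the alpha chain known as CD103, was low everywhere. The gene is at chr11:73090583-73147446 on the plus strand, and Haspin overlaps it on the opposite strand. B cell libraries gave 0.321, 0.727 and 0.320 in females and 0.379, 0.339 and 0.354 in males. T cell libraries gave 0.103, 0.0820 and 0.833 in females and 0.0934, 0.0629 and 0.769 in males. The 4 T cell libraries numbered 4 and 5 lay below every B cell library, and both libraries numbered 6 lay above every B cell library. The deposited upper bound of Itgae was 1.51 to 4.58 times its lower bound, against 1.03 to 1.35 times for the 8 tested genes, so these values have little precision.

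The order of levels differed between the cell types. In B cells it ran from Itga4 through Itgb7, Itgb2, Itgal, Cd44, Itgb1, Selplg and Itga6 to Itgae. The ranges of Itgb2 and Itgal overlapped, although Itgb2 was higher within each of the 6 B cell libraries. Itgb1, Selplg and Itga6 also overlapped, with means between 15.5 and 16.2. In T cells the order ran from Itgb7 through Itgb2, Selplg, Itga6, Itga4, Itgal, Itgb1 and Cd44 to Itgae. Here the neighbours from Itgb2 to Itga4 overlapped, with means from 91.0 to 135.1, whereas Itgb7 lay above them and Itgal below them in range.

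Ratios of chains within a library do not change when the whole library is rescaled by a common factor. Each of 6 ratios was compared between the 6 B and the 6 T cell libraries by an exact two-sided permutation test. Benjamini-Hochberg adjustment was over the 6 ratios, and the smallest p this design allows is 0.00216. The test treats same-numbered T cell libraries as separate although they deviated together, so its p-values may be too small. All 6 ratios were past an adjusted p of 0.05. For LFA-1 the ratio of Itgal to Itgb2 had a geometric mean of 0.839 in B cells against 0.414 in T cells, a log2 difference of 1.02 (exact permutation test, adjusted p = 0.0026). Every B cell library was above every T cell library for this ratio.

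For the alpha 4 chain, the ratio of Itga4 to Itgb7 was 1.97 in B cells against 0.396 in T cells, a log2 difference of 2.32 (exact permutation test, adjusted p = 0.0026). Thus Itga4 RNA exceeded Itgb7 RNA in all 6 B cell libraries and was below it in all 6 T cell libraries. The ratio of Itgb7 to Itgb1 was 3.37 in B cells against 13.2 in T cells, with no overlap (exact permutation test, adjusted p = 0.0026). The ratio of Itga4 to Itgb1 moved less, from 6.65 in B cells to 5.23 in T cells, and the libraries overlapped (log2 difference 0.35, exact permutation test, adjusted p = 0.0195).

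The ratio of Itga6 to Itgb1 was 0.963 in B cells against 7.07 in T cells, a log2 difference of -2.88 (exact permutation test, adjusted p = 0.0026). In T cells its log2 values spanned only 2.74 to 2.92. The ratio of Itgae to Itgb7 was 0.00714 in B cells against 0.000785 in T cells (exact permutation test, adjusted p = 0.0026), and its log2 values in T cells ran from -11.8 to -7.90 with the libraries numbered 6 at the upper end. The alpha E chain was thus scarce beside its beta partner in both cell types. Without both libraries numbered 6 all 6 ratios kept their direction and call, and the difference for Itgae to Itgb7 was then 4.36.

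**Figure D2:**
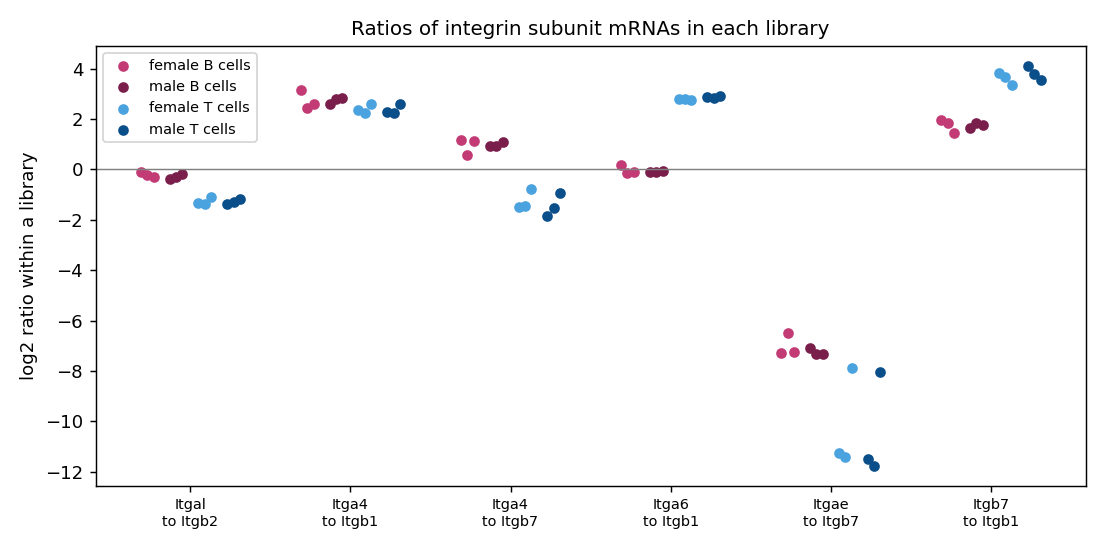
Log2 ratios of integrin chain RNAs within each library (vertical axis), 3 points for each of the 4 groups at each of the 6 ratios on the horizontal axis; 0 marks equal levels. B and T cell libraries overlap only for Itga4 to Itgb1, and the T cell libraries of Itgae to Itgb7 span -11.8 to -7.90.

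Summed over the 18 alpha chain genes of the table, adjusted TPM was 177.7 ± 10.4 in B cells and 284.4 ± 24.2 in T cells (SD, n = 6 each). Summed over the 9 beta chain genes it was 117.4 ± 11.9 in B cells and 421.6 ± 44.3 in T cells. The ratio of the alpha to the beta sum ran from 1.30 to 1.75 in B cells and from 0.550 to 0.861 in T cells, so alpha chain RNA was in excess in every B cell library and beta chain RNA in every T cell library. The ratio was 0.861 and 0.824 in the T cell libraries numbered 6 against 0.550 to 0.632 in the other 4. Without both libraries the T cell sums were 270.2 ± 10.1 for alpha and 446.9 ± 26.3 for beta chains (SD, n = 4). Itga4 made up 60.5% of alpha chain RNA in B cells against 31.8% in T cells, whereas Itga6 made up 8.76% and 42.8%. Among beta chains Itgb7 was first in both, with 46.5% in B cells against 54.1% in T cells. Itgb2 held nearly the same share, 32.8% and 32.1%, and Itgb1 held 13.8% and 4.13%. In the 4 T cell libraries other than those numbered 6 the shares were 29.9% for Itga4, 43.5% for Itga6, 54.1% for Itgb7, 32.3% for Itgb2 and 3.74% for Itgb1.

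**Figure D3:**
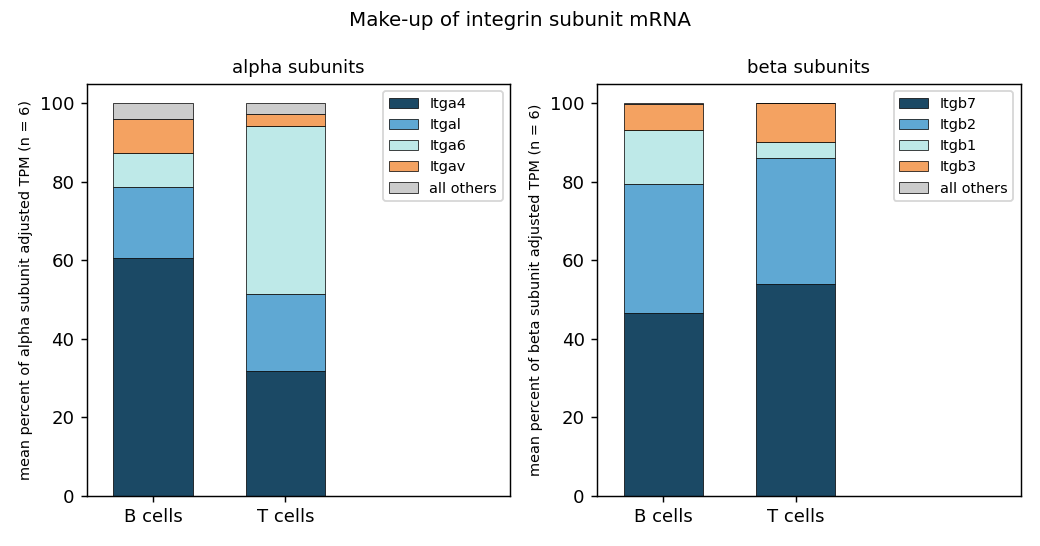
Mean share of each integrin chain in the summed adjusted TPM of the 18 alpha (left) and 9 beta (right) chain genes, in percent from 0 to 100, for 6 B and 6 T cell libraries. Itga4 takes 60.5% of the alpha sum in B cells and Itga6 42.8% in T cells, while Itgb7 takes the largest beta share in both.

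The sexes were compared in B cells and in T cells to ask whether adhesion RNA differed by sex. No adhesion gene passed the test in B cells, where 0 of 8 were past an adjusted p of 0.05 and 0 past an unadjusted p of 0.05 in limma, beside 0.144% of all tested genes called. In T cells 0 of 8 were called and 1 was past the unadjusted threshold, beside 0.104% of all tested genes called. For the difference between the sex effects 0 of 8 were called and 0 passed unadjusted, and the share over all tested genes was 0.00%.

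The gene past the unadjusted threshold was Cd44, at 9.55 ± 1.33 in female and 7.29 ± 1.37 in male T cells (SD, n = 3 each). The female library was higher in each of the 3 same-numbered pairs. The log2 difference of Cd44, females minus males, was 0.35 with a 95% interval from 0.07 to 0.63 (limma adjusted p = 1.00). Without the libraries numbered 6 it was 0.20 with an interval from -0.11 to 0.51. For the other 7 genes in T cells the limits of the intervals ran from -0.40 for Selplg to 0.50 for Itga4. In B cells they ran from -0.39 for Selplg to 0.32 for Itga4. Larger sex differences lie outside these intervals, and differences within them remain possible. With the same-numbered T cell libraries taken as pairs (the replicate number as a block in limma), 0 of 8 genes were called and 3 were past the unadjusted threshold, namely Cd44, Itga4 and Itgb1. The female library was higher in all 3 pairs for each of them, but also for Itga6 and Itgae, and in 0 of 3 for Selplg. The smallest adjusted p of the 8 genes in this fit was 0.787. The paired 95% interval was 0.11 to 0.60 for Cd44, 0.03 to 0.32 for Itga4 and 0.01 to 0.30 for Itgb1. These intervals include the pair numbered 6 and were not computed without it. The pairing was taken from these data and not from the labels, so the narrower paired intervals are not separate evidence of a sex difference. For the 6 chain ratios, an exact permutation test of 3 against 3 cannot give a p below 0.1, so it could not call a sex difference. The ratio of Itga6 to Itgb1 in T cells was at that limit (exact permutation test, p = 0.1), with 6.68 to 6.93 in females and 7.07 to 7.58 in males. All other ratios had p of 0.5 or more in either cell type.

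The T cell libraries numbered 6 came from both sexes and shared a pattern across the adhesion genes. Itga4, Itga6 and Itgae lay above the other 4 T cell libraries, and Selplg, Itgal, Itgb2 and Itgb7 lay below them. Cd44 and Itgb1 overlapped. Over all tested genes 17.0% lay above and 18.6% below in the same way. The ratio of means, libraries numbered 6 over the others, was 9.39 for Itgae and 1.37 for Itga4, and it was 0.760 for Selplg, 0.815 for Itgb2 and 0.828 for Itgb7. Without both libraries 7 of the 8 tested genes were again called between B and T cells, beside 73.8% of all tested genes. The difference was then -2.84 for Itga6, -2.13 for Itgb7, -1.88 for Itgb2, -0.80 for Itgal and 1.31 for Cd44, each close to its value over all libraries.

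Most markers of other T cell states moved with these libraries. Il2ra, which encodes the CD25 that the sort excluded, was at least 4.11 in both and 0.158 to 0.340 in the others. Ikzf2, a transcription factor of regulatory T cells, was 11.3 and 13.4 against 1.07 to 2.07. Foxp3, the defining regulator of regulatory T cells, was 1.82 and 2.57 against 0.440 to 0.735. The summed 6 memory and effector markers were 23.4 in each and 7.92 to 9.02 in the others. Most of that sum was the cytokine receptor chain Il2rb, at 16.1 and 16.8 against 3.92 to 5.27. Cxcr3, Eomes and Tbx21 also lay above the others, whereas Ccl5 and Cxcr6 overlapped.

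Itgb8, the chain that activates latent TGF-beta on regulatory T cells and dendritic cells, was 0.214 and 0.271 in the libraries numbered 6 and at most 0.0197 in the others. Itgax, a chain of dendritic cells, was 0.394 and 0.499 against at most 0.0571. All these values of Itgb8 and Itgax were below 1. The summed dendritic cell markers overlapped, at 2.84 and 2.49 against 1.84 to 2.65. Itgam went the other way, at 0.916 to 1.21 against 1.48 to 1.71. The monocyte list summed to 4.55 in the female and 2.23 in the male library against 1.06 to 1.53, although Cd68 of that list overlapped. The part of these cells in the values of the adhesion genes was not tested.

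**Figure D4:**
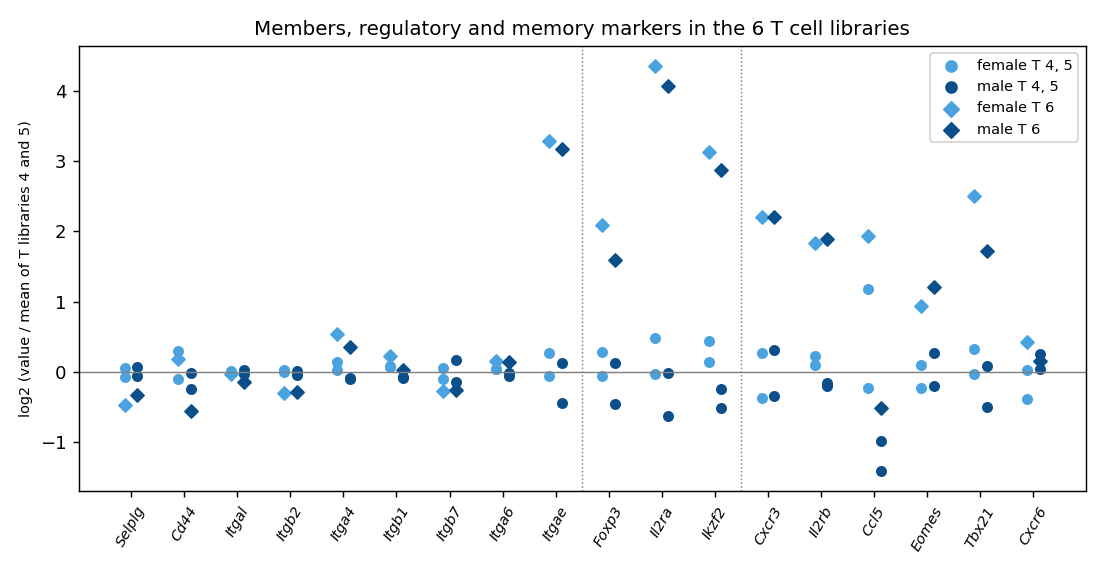
Log2 of each T cell library's adjusted TPM over the mean of the 4 T cell libraries numbered 4 and 5 (vertical axis), for the 9 adhesion genes, 3 regulatory and 6 memory or effector markers (left, middle and right of the dotted lines); diamonds are the libraries numbered 6. Itgae, Il2ra and Ikzf2 are far above 0 in both diamonds, while Selplg, Itgb2 and Itgb7 are below 0.

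Of the 20 other integrin chains 6 passed the filter, and 3 were higher in B cells, 2 in T cells and 1 not called. Over all tested genes 31.4% were higher in B cells and 41.6% in T cells. The median difference of the chains was 0.32 beside -0.09 for all tested genes. Itgb3, the beta chain of a vitronectin receptor and of the platelet fibrinogen receptor, was 7.89 ± 1.46 in B cells and 41.1 ± 5.49 in T cells (SD, n = 6 each; log2 difference -2.25, limma adjusted p = 1.99e-09). Its alpha partner Itgav went the other way, with 15.0 ± 1.30 in B cells and 8.68 ± 1.16 in T cells (log2 difference 0.73, limma adjusted p = 4.93e-06). Itga7 was 0.00918 ± 0.0049 in B cells against 1.96 ± 0.37 in T cells. The 20 genes also include Itga2 and Itgam, whose proteins CD49b and CD11b were targets of the depletion before the T cell sort. Itgam was not called, at 1.25 ± 0.18 in B cells against 1.41 ± 0.30 in T cells, and Itga2 stayed below the filter. Itgam was 0.916 to 1.21 in the T cell libraries numbered 6 and 1.48 to 1.71 in the other 4, against at most 1.47 in B cells. Without both libraries numbered 6 all 6 tested chains were called, beside 73.8% of all tested genes. Of these chains 3 were higher in B cells and 3 in T cells, Itgam among the latter.

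Itga2b and Itgax were the other chains higher in B cells. Itga2b, the platelet alpha chain, was 0.877 to 2.63 in B cells against at most 0.525 in T cells (log2 difference 0.82, limma adjusted p = 0.000295). The platelet markers moved with it, since the sum of Pf4, Ppbp, Gp9 and Gp1bb was 3.92 to 15.2 in B cells and 0.0807 to 0.143 in T cells. Itgax was 1.06 to 4.08 in B cells against at most 0.499 in T cells (log2 difference 1.53, limma adjusted p = 7.74e-06). The monocyte markers were 8.95 to 13.1 in B cells and 1.06 to 4.55 in T cells. The part of platelets and of myeloid cells in these values was not tested.

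Genes that activate integrins or bind their tails were mostly measured, 23 of 26, and 5 were higher in B cells, 15 in T cells and 3 not called. Over all tested genes 73.0% were called, 31.4% higher in B cells and 41.6% in T cells. The median of the list was -0.27, beside -0.09 for all tested genes. Its split followed the scaling, since 6 were higher in B cells against 2 in T cells after rescaling to a total of 1000000, and 6 and 11 with median-ratio scaling. Skap1 and Fyb, adaptors that couple the antigen receptor to integrins in T cells, had the largest differences. Skap1 was 1.12 ± 0.20 in B cells and 229.7 ± 20.6 in T cells (SD, n = 6 each; log2 difference -6.77, limma adjusted p = 4.75e-16). Fyb was 1.49 ± 0.52 in B cells and 102.7 ± 12.2 in T cells (log2 difference -5.40, limma adjusted p = 3.89e-13).

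The paralog Skap2 went the other way, with 24.6 ± 1.42 in B cells and 5.52 ± 0.74 in T cells (log2 difference 1.98, limma adjusted p = 3.97e-11). Vcl, which encodes the actin linker vinculin, and Ptk2b, which encodes the adhesion kinase PYK2, were also higher in B cells, by 2.44 and 1.26. Rassf5, which encodes the Rap1 effector RAPL that binds LFA-1, was 53.8 ± 2.42 in B cells against 93.8 ± 4.59 in T cells, and its difference of -0.79 was not called after rescaling to a total of 1000000 (-0.41, adjusted p = 0.0667). Tln1 (talin) was 111.7 ± 8.94 in B cells against 134.8 ± 9.46 in T cells, and Fermt3 (kindlin-3) was 77.1 ± 3.87 against 73.8 ± 6.76, so both integrin activators were abundant in each.

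Of 12 integrin ligands 2 passed the filter. Icam1, the endothelial and lymphoid ligand of LFA-1, was 22.7 ± 2.56 in B cells and 7.02 ± 1.79 in T cells (SD, n = 6 each; log2 difference 1.58, limma adjusted p = 5.73e-08). Icam2 was not called, at 50.9 ± 3.66 in B cells and 45.1 ± 6.16 in T cells (log2 difference 0.18, limma adjusted p = 0.0787). Without both T cell libraries numbered 6 its difference was 0.07 and again not called (limma adjusted p = 0.292). Icam2 was called as higher in B cells without female T cells 4, without female T cells 5, with median-ratio scaling (0.29, limma adjusted p = 0.00563) and after rescaling to a total of 1000000 (0.55, limma adjusted p = 0.0105). In the last case 4 ligands were tested and all were called higher in B cells, beside 39.1% of all tested genes. Madcam1, Cdh1 and Vcam1, which encode the ligands of the Itgb7 and Itga4 integrins, stayed below the filter.

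Of 15 selectins and genes that build selectin ligands 9 were tested, and 4 were higher in B cells against 5 in T cells. All 9 were thus called, beside 73.0% of all tested genes. The median of the list was -0.36, beside -0.09 for all tested genes. After rescaling to a total of 1000000 its split was 4 and 4. Spn, which encodes CD43, was 6.99 ± 0.89 in B cells, which were selected as CD43-, and 184.3 ± 14.6 in T cells (log2 difference -4.54).

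The enzymes that modify PSGL-1 and related proteins split in a gene-specific way. Gcnt1, the core-2 branching enzyme of O-glycans, was 21.7 ± 1.19 in B cells and 0.0591 ± 0.058 in T cells (SD, n = 6 each; log2 difference 4.42, limma adjusted p = 1.91e-15). Tpst1, a tyrosine sulfotransferase, was 24.7 ± 1.42 in B cells and 2.54 ± 0.36 in T cells (log2 difference 2.86, limma adjusted p = 1.04e-12). Tpst2, another tyrosine sulfotransferase, went the other way, with 20.3 ± 2.73 in B cells and 37.0 ± 5.21 in T cells (log2 difference -0.84, limma adjusted p = 1.54e-05). Among the sialyltransferases, St3gal6 was higher in B cells by 1.35 and St3gal4 higher in T cells, with a difference of -2.12. B4galt1, a galactosyltransferase, was also higher in T cells, with a difference of -0.96. Fut7, which adds the fucose of selectin ligands, stayed below the filter, with means of 0.000606 in B cells against 0.0424 in T cells.

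Of 10 partners of CD44 and hyaluronan genes 7 were tested, and 2 were higher in B cells, 2 in T cells and 3 not called. Over all tested genes 73.0% were called. The median of the list was 0.10, beside -0.09 for all tested genes. Its split was 4 and 1 after rescaling to a total of 1000000 and 3 and 2 with median-ratio scaling. Of the 3 linkers of CD44 to actin, Ezr (ezrin) was higher in B cells by 0.31 (limma adjusted p = 0.00131) and Rdx (radixin) was higher in T cells, with a difference of -0.65 (limma adjusted p = 1.44e-07). The third and most abundant, Msn (moesin), was not called, at 218.0 ± 21.8 in B cells and 202.8 ± 10.8 in T cells (SD, n = 6 each; log2 difference 0.10, limma adjusted p = 0.244). Msn was called as higher in B cells after rescaling to a total of 1000000 (0.48, limma adjusted p = 0.047) and with median-ratio scaling (0.21, limma adjusted p = 0.0131). The Rdx call was lost after rescaling to a total of 1000000 (adjusted p = 0.225). Slc9a3r1, a scaffold of these linkers, was higher in T cells, with a difference of -1.42. Hmmr, a hyaluronan-binding protein of dividing cells, was higher in B cells by 1.27, and the summed cell cycle markers were 22.1 to 48.2 in B cells and 3.47 to 5.47 in T cells.

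Of 9 genes comprising tetraspanins and Cd47, membrane proteins that associate with integrins, 8 were tested. Of these 2 were higher in B cells, 5 in T cells and 1 not called, beside 73.0% of all tested genes called. The median of the list was -0.37, beside -0.09 for all tested genes. Its split was 2 and 2 after rescaling to a total of 1000000 and 3 and 4 with median-ratio scaling. Cd37 was 343.5 ± 15.0 in B cells and 61.6 ± 4.28 in T cells (SD, n = 6 each), and Cd81 was 94.5 ± 6.57 and 12.2 ± 1.91. Cd9 and Tspan32 were higher in T cells, with differences of -1.68 and -0.83. Cd53 was 335.9 ± 31.8 in B cells against 482.5 ± 58.6 in T cells, and its difference of -0.52 was not called after rescaling to a total of 1000000 (-0.14, adjusted p = 0.635).

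**Figure D5:**
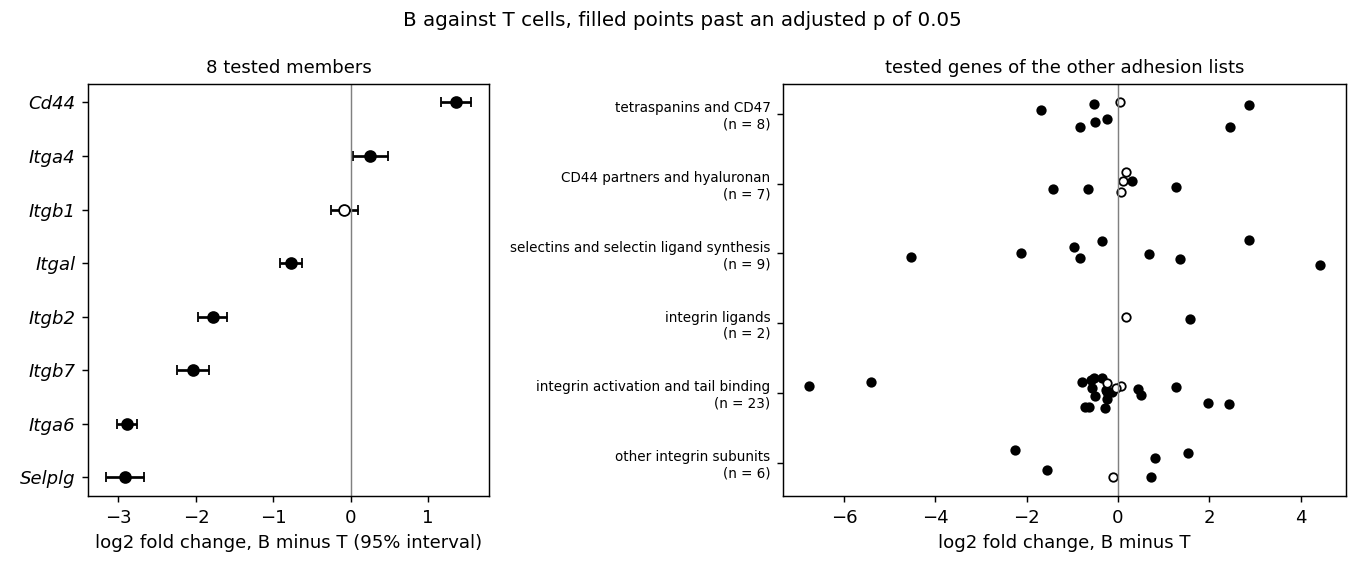
Log2 differences, B minus T, of the 8 tested adhesion genes with 95% intervals (left) and of the tested genes of the 6 other adhesion lists (right); filled points are past an adjusted p of 0.05 in limma. Selplg and Itga6 lie near -2.9, Cd44 at 1.36 and Itgb1 across 0, and among the lists Skap1 lies farthest to the left at -6.77 and Gcnt1 farthest to the right at 4.42.

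For each of the 9 genes, the protein-coding gene with the most similar values over the 12 libraries was sought among the 2300 whose mean on the log2 scale was 5 or more. The points share libraries and fall into B and T clusters, so these correlations mostly restate the difference between the cell types and are given without a test. Pearson's r was 0.999 between Selplg and Pdlim1 and 0.999 between Itga6 and Lef1, a transcription factor of naive T cells. It was 0.998 between Itgb2 and Ctsd, 0.996 between Itgal and Ablim1 and 0.996 between Itgb7 and Arhgap1. It was 0.981 between Cd44 and Rcsd1 and 0.938 between Itga4 and Kmt2c. For Itgae it was 0.875 with Sesn3 and for Itgb1 0.696 with Thumpd3.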

How the data were processed

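RNA sequencing of 12 libraries was used as deposited. Per the labels, ribosomal RNA was removed, libraries were stranded, and the submitters' processing notes name Trim Galore, FastQC, STAR and the build mm10. The quantification tool, the annotation, the method of adjustment, the level of the interval and whether counting used strand are not given in the sources used here. The authors deposited a signal, adjusted TPM, with a point estimate and lower and upper bounds per library. Totals ran from 561020 to 1453940, so the values are neither counts nor plain TPM, and depth is unknown.

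Values were analysed as log2(adjusted TPM + 1). Genes at 1 or more in 3 or more libraries, 12520 in all, were tested with limma 3.58.1 in R 4.3.3 (mean-variance trend, 1 coefficient per group, all 12 libraries), with Benjamini-Hochberg adjustment over all tested genes and a threshold of 0.05. Because the values are not counts, no count test was used. The fit was first checked on simulated data. Chain ratios were tested by exact permutation over libraries. Python 3.11.15, numpy 2.4.6, scipy 1.17.1, pandas 2.3.3 and matplotlib 3.10.9 were used otherwise.

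Groups came from the labels, where replicate numbers run from 1 to 3 for B cells and from 4 to 6 for T cells of each sex. Deviations from the group mean correlated between same-numbered female and male T cell libraries (r = 0.721, 0.548 and 0.521). The numbers were therefore treated as pairs in a sex comparison of T cells, a pairing taken from these data and not from the labels. Tests between B and T cells did not use the pairing. Alternatives were another pseudocount, no filter, 2 other scalings, no trend, single sexes or cell types, the replicate number as a block and each replicate left out. An alternative without both T cell libraries numbered 6 was added after seeing the data.

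The 9 genes and all lists were chosen with earlier results of these data known. The genes named are all 9, the up to 3 genes of each list with the largest called difference in each direction, Spn, and the gene most alike each of the 9. Vcam1, Madcam1, Cdh1, Icam2, Msn, Itgam, Itga2, Itgb8, Tln1, Fermt3, Tpst2 and Fut7 were named after their values were seen. Gene identifiers were matched without version to GENCODE M21 (97.9% of the table), and promoters are from RefSeq. A gene of the selectin list and a B cell marker are not reported here and were left out of the counts and sums.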

Additional observations from a re-analysis of the deposited data

Results flagged for a closer look

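In 30 groups of 6 libraries the sample at either end was compared with its nearest neighbour, and 4 stood apart by Dixon's criterion at 95%, which chance alone would mark in about 1 of 20 groups. Itgal was 51.5 in male T cell 6, below the other 5 T cell libraries. Itgae was 0.727 in female B cell 2, above the other 5 B cell libraries, and the log2 ratio of Itgae to Itgb7 was -6.50 in the same library. The log2 ratio of Itga6 to Itgb1 was 0.18 in female B cell 1, above the other 5 B cell libraries. That library also had the lowest Itgb1 value, 12.9.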

How the results depend on the processing

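All counts of the 9 genes between the cell types and between the sexes stayed within 1.5 times under all alternatives run, with 6 to 7 genes called between B and T cells when single libraries were left out. All 6 chain ratios kept direction and call when single libraries were left out and without both T cell libraries numbered 6. Rescaling a whole library cannot change such a ratio. A test within 1 sex, 3 against 3, could not give a p below 0.1 and so could not check the call. None of the 7 called genes changed sign in any alternative run. The uncalled difference of Itgb1 between the cell types turned from -0.08 to 0.28 after rescaling to a total of 1000000 and to 0.02 with median-ratio scaling. The first of these scalings also turned the median of the activation list from -0.27 to 0.11 and that of the tetraspanin list from -0.37 to 0.01. Counts over the other adhesion lists moved in these cases. With no filter on low values 12 of 20 other integrin chains, 7 of 12 ligands and 7 of 10 CD44 partners were called. The share over all genes is not given for that setting. After rescaling to a total of 1000000, 8 of 23 activation genes, 4 of 4 ligands and 4 of 8 tetraspanins were called, beside 54.6% of all tested genes. With median-ratio scaling 2 of 2 ligands were called, beside 72.2% of all tested genes, and with single libraries left out 1 to 2 of 2. Without both T cell libraries numbered 6, 73.8% of all tested genes were called. The lists then had 6 of 6 other integrin chains, 20 of 23 activation genes, 1 of 2 ligands and 9 of 9 selectin genes called. So were 5 of 7 CD44 partners and 7 of 8 tetraspanins. The filter changes how many genes are tested, and beyond that the cause was not tested. Same-numbered female and male B cell libraries did not deviate together (r = -0.169, -0.038 and -0.337), so they share only a number. With the replicate block, 0 of 8 genes were called between the sexes of either cell type, with 3 past an unadjusted p of 0.05 in T cells and 0 in B cells. The number of libraries limits the precision, and the depth behind each value is unknown.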
